A study of Homo sapiens with 6 samples.

Results

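The genes of glycolysis, lactate handling and the pyruvate dehydrogenase kinases were followed in OCI-AML3 cells, an established line of human acute myeloid leukaemia, with and without extra SLC2A3. SLC2A3 encodes GLUT3, a high-affinity glucose transporter that can also carry oxidised vitamin C. The set is a list of 36 pathway gene symbols, chosen with earlier results of these data known. Each symbol matched 1 of the 60660 Ensembl gene IDs. It holds the enzymes from glucose phosphorylation to lactate, the PFKFB enzymes, FBP1, the phosphoglucomutases, 3 monocarboxylate transporters with their chaperone BSG, and the 4 pyruvate dehydrogenase kinases (PDKs). 3 libraries carried an empty vector, named pLenti in the titles, and 3 overexpressed SLC2A3. All 6 cultures received 250 µM vitamin C, so the comparison is between transporter levels in vitamin C-treated cells. The labels do not give the promoter driving SLC2A3, or say whether the lines were pools or single clones, or whether replicates were separate cultures. If they were not, the p-values measure a spread between samples that may be technical only.

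Glycolysis splits glucose into pyruvate in the cytosol, with a small yield of ATP and NADH. Lactate dehydrogenase turns pyruvate into lactate and regenerates NAD+, and lactate leaves the cell through monocarboxylate transporters (MCTs). The PDKs phosphorylate and switch off pyruvate dehydrogenase, which would otherwise send pyruvate into mitochondria. Many steps have several isoforms encoded by separate genes, and leukaemic and activated myeloid cells are known for high glycolytic flux. Read counts give transcript levels and do not measure enzyme amount, activity or flux.

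The values are normalised reads, gene read counts divided by 1 size factor per library, and depth was 31054462 to 35770556 recovered reads. SLC2A3 itself was at 1194, 1183 and 1257 normalised reads with empty vector and 4056, 3716 and 4054 with SLC2A3, so each library matched its label. Of 11 myeloid markers, 10 passed the low-value filter and 1, FLT3, was called lower (log2 change -0.21), and their sum ran from 56881 to 58716 in controls and 56450 to 61363 with SLC2A3. SPI1, CEBPA, LYZ and CD33 were all present, and KIT, a progenitor receptor, was near 0. Of 18 markers of other cell types, 11 passed the filter, 0 were called, and HBB, HBA1, CD3E, CD3D and MS4A1 were at 0 in every library. NCAM1 was the highest of them, at a mean of 7699 normalised reads with empty vector and 7617 with SLC2A3, and the list summed to 9606 to 9748 and 9229 to 9681 across the libraries of each group. The noncoding RNA RN7SL1 was higher in every SLC2A3 library than in every control, and within each group it was highest in replicate 2, at 1812 and 6026 normalised reads against 538 and 705 in the other control libraries and 2233 and 1922 in the other SLC2A3 libraries. Without both replicate 2 libraries the log2 changes of LDHA, PFKFB4 and HK2, described next, were 0.20, 0.38 and 0.17, and HK2 was no longer called (adjusted p = 0.157). The part of RN7SL1 in the group differences was not tested.

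LDHA, PFKFB4 and HK2 rose in the SLC2A3 group, by 1.16-fold, 1.23-fold and 1.18-fold, and no other member passed the test. LDHA makes lactate, PFKFB4 sets the level of the phosphofructokinase activator fructose 2,6-bisphosphate, and HK2 is the inducible hexokinase that can dock on mitochondria. Of 35 members that passed the low-value filter (at least 1 normalised read in at least 3 libraries), 3 were higher and 0 lower at a limma adjusted p under 0.05. Over all 28015 tested genes, 1.49% were called, 0.692% higher and 0.8% lower, and among genes with a mean of at least 100 normalised reads 1.59% were called higher. At an unadjusted p under 0.05, 8 members were higher and 3 lower, 11 of 35 against 11.8% of all tested genes and 19.9% of those with a mean of at least 100. edgeR's quasi-likelihood test on recovered reads also called 3 members higher and 0 lower, against 1.53% and 1.76% of all genes in that test. Because these are bulk samples, fewer cells of a type and less RNA per cell cannot be told apart.

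Across the set the differences were small and leaned upward. The median log2 change was 0.06 over the 35 tested members against 0.00 over all tested genes (-0.01 over the 11730 genes with a mean of at least 100), and 24 of 35 were positive. The groups did not overlap for 13 of 35 members, against 16.3% of all tested genes. In 11 of these, all SLC2A3 libraries were above all empty vector libraries (8.04% of all tested genes, and 10.7% of those with a mean of at least 100), and in PFKFB3 and PDK4 they were all below (8.27% and 13%). Together the 36 genes took 1.13% ± 0.0198 of all reads with empty vector and 1.17% ± 0.0051 with SLC2A3 (SD, n = 3 each). These shares did not overlap (exact two-sided permutation p = 0.1, the smallest that 3 against 3 allows).

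**Figure D1:**
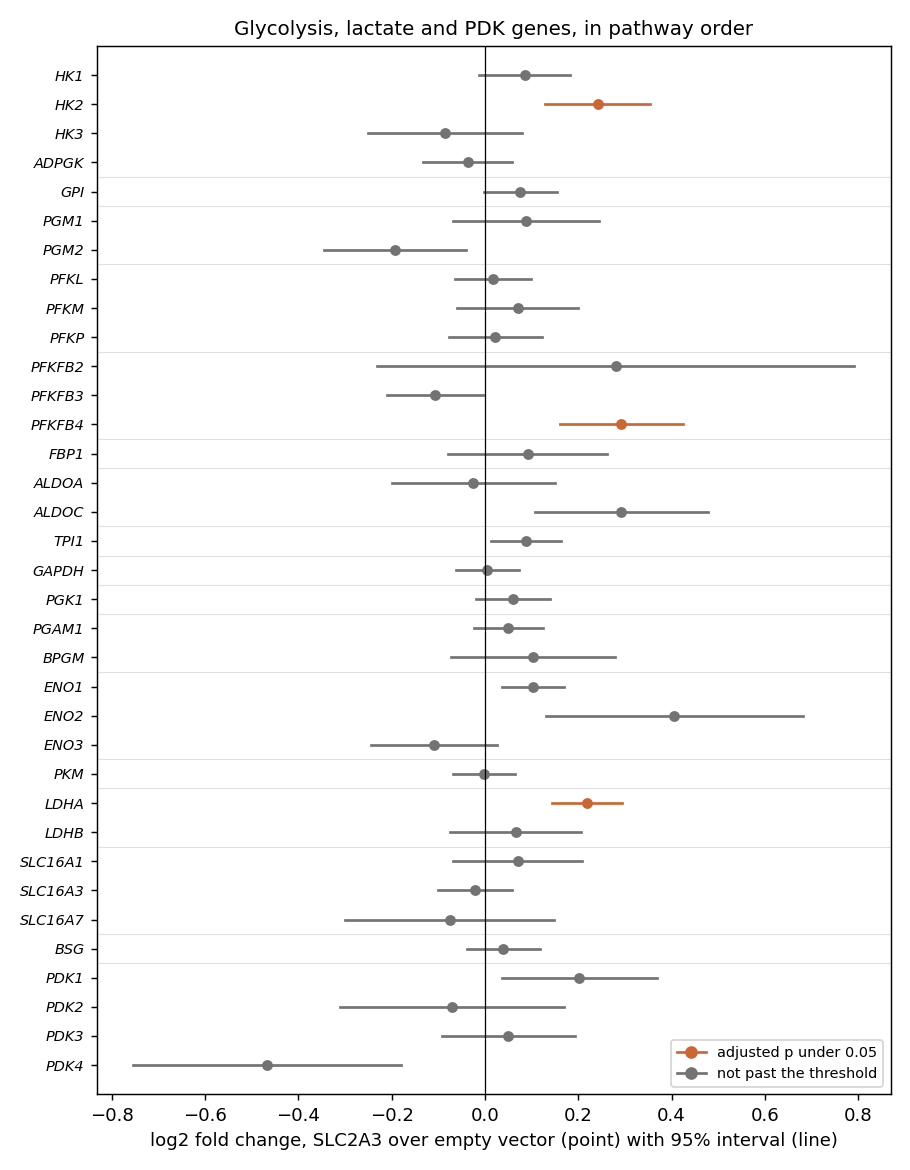
Each row is 1 of the 35 tested members, in pathway order, with its log2 fold change of SLC2A3 over empty vector on the x axis (point) and the 95% limma interval (line), from 3 libraries a group. LDHA, PFKFB4 and HK2 (orange) passed the threshold, at 0.22, 0.29 and 0.24, and the intervals of GAPDH and PKM are centred near 0.

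The promoters of the 3 genes that rose are shown because these are the members that passed the test. The windows run from 250 bases before to 50 after the RefSeq start on GRCh38.p14, at chr11:18394313-18394612 (plus strand) for LDHA, chr3:48556754-48557053 (minus strand) for PFKFB4 and chr2:74833877-74834176 (plus strand) for HK2. Capitals mark matches, on either strand, to ACGTG or GCGTG, the core letters of hypoxia-inducible factor (HIF) sites, or to CACGTG, the E-box letters read by MYC and the MLX-family glucose sensors.
LDHA: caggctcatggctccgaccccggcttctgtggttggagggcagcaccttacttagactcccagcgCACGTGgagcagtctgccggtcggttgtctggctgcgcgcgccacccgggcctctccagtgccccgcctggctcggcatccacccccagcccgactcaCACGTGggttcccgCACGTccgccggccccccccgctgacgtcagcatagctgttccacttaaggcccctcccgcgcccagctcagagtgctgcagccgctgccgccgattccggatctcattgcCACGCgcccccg
PFKFB4: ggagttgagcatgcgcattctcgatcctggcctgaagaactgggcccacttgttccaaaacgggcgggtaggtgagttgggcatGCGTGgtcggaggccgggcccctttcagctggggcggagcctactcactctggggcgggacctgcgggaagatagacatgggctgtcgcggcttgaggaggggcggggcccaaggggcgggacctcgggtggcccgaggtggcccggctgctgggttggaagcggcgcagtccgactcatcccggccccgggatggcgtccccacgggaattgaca
HK2: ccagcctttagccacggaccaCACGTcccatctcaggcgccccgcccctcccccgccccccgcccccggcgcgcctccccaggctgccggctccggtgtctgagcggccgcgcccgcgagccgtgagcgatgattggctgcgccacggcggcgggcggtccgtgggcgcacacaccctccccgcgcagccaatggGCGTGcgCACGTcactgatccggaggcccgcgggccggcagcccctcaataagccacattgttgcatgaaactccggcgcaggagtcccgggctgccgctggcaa
LDHA holds CACGTG at 185 and at 87 bases before its start. Each of those palindromes contains ACGTG on both strands. LDHA also has a separate ACGTG match 73 bases before the start and a GCGTG match 39 bases after it. HK2 has ACGTG matches 229 and 48 bases before its start and GCGTG at 55 bases. PFKFB4 has GCGTG at 166 bases and neither of the other motifs in this window. Of 27305 promoter windows of 300 bases, 7.43% hold CACGTG, 21.6% hold ACGTG and 36.3% hold GCGTG. Among 33 tested members with a window, the counts were 4, 11 and 15. These are letter matches and show nothing about binding.

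Glucose phosphorylation had 4 expressed genes. HK2 (ENSG00000159399.10, chromosome 2, 74833981 to 74893359, GENCODE 29 on GRCh38) was at 2645, 2411 and 2761 normalised reads with empty vector and 3094, 3126 and 3009 with SLC2A3. All 3 SLC2A3 libraries were above the highest empty vector library, and the log2 change was 0.24 (SE 0.055, limma adjusted p = 0.0173). The call did not hold without empty vector replicate 2 (adjusted p = 0.116), the library lowest in HK2, where the log2 change was 0.19. It also failed without SLC2A3 replicate 1, 2 or 3 (0.0544, 0.0695 and 0.083) and without both replicate 2 libraries. HK1, the housekeeping hexokinase, was at 4195, 4221 and 4188 against 4448, 4262 and 4669 normalised reads. The HK1 groups did not overlap, by a narrow gap, but its log2 change of 0.09 did not pass (adjusted p = 0.521).

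ADPGK, a glucokinase that uses ADP, led the step per length of transcript. It was at 4639, 4493 and 4497 against 4526, 4333 and 4424 normalised reads, with overlapping groups and a log2 change of -0.04 (interval -0.13 to 0.06). HK3, a hexokinase typical of myeloid cells, was at 693 ± 40.2 against 652 ± 19.9 normalised reads, with a log2 change of -0.09 and overlapping groups. HKDC1, a hexokinase relative of epithelia, had 4 reads over the controls and 1 over the SLC2A3 libraries, and was the member that did not pass the filter.

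The mix of these enzymes differed slightly. On reads per kb of transcript (longest protein-coding GENCODE 29 model), HK2 made up 12.9% ± 0.795 of the step in controls and 14.8% ± 0.561 with SLC2A3, while ADPGK went from 50.7% ± 0.626 to 48.2% ± 0.602 (SD, n = 3). Neither share overlapped between groups (exact permutation p = 0.1 each, 0.233 after Benjamini-Hochberg adjustment). In all, 28 such shares in 10 families were compared, and 12 did not overlap between groups. Shares of a family add up to its whole, so these are not separate results. A pair such as ALDOA and ALDOC, or PGM1 and PGM2, counts the same difference again. No such count was made for other gene families. No share could pass with 3 libraries a group. The step total was 3505 ± 32.7 against 3593 ± 73.3 normalised reads per kb, with overlapping groups.

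At the entry and exit of glucose 6-phosphate, GPI, the isomerase that makes fructose 6-phosphate, was at 13255, 13734 and 13254 against 14304, 13838 and 14275 normalised reads. The groups were separate, but the log2 change of 0.08 did not pass (interval -0.0020 to 0.15, adjusted p = 0.443). The phosphoglucomutases link glycolysis to glycogen and nucleotide sugars. PGM1 was at 834, 839 and 884 against 824, 946 and 954 normalised reads, and PGM2, which also acts on pentose phosphates, at 1204, 1204 and 1024 against 946, 1005 and 1045. Neither was called (PGM1 log2 change 0.09, adjusted p = 0.746, and PGM2 -0.19, adjusted p = 0.253). Their mix did not overlap, however, with PGM1 at 47.9% ± 3.13 of the pair against 52.7% ± 0.978 (exact permutation p = 0.1).

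The committed step, phosphofructokinase-1, stayed close between groups. PFKL, the liver-type and leading isoform, was at 15556, 16962 and 16633 against 16697, 16817 and 16193 normalised reads. PFKP, the platelet type, was at 6242 ± 297 against 6341 ± 350, and PFKM, the muscle type, at 1503 ± 93.5 against 1576 ± 52.4. All 3 overlapped between groups, with log2 changes of 0.02, 0.02 and 0.07. The interval for PFKL reached from -0.06 to 0.10. PFKL made up 67.4% ± 1.86 of the step against 67.2% ± 1.39.

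The PFKFB enzymes make and break fructose 2,6-bisphosphate, which activates phosphofructokinase-1 and inhibits fructose bisphosphatase, and their main isoforms differed in opposite directions, of which only the PFKFB4 difference passed the test. PFKFB4 (ENSG00000114268.12, chromosome 3, 48517684 to 48562015) was at 1442, 1490 and 1407 normalised reads with empty vector and 1866, 1618 and 1839 with SLC2A3. The groups were separate, with SLC2A3 replicate 2 the closest to the empty vector range. The log2 change was 0.29 (SE 0.064, limma adjusted p = 0.0126). PFKFB4 lost its call without empty vector replicate 3 (adjusted p = 0.0715) and without SLC2A3 replicate 1 or 3 (0.0703 and 0.134). UCN2 overlaps PFKFB4 on the same strand, at a mean of 9.4 normalised reads. PFKFB3, the isoform with the strongest kinase bias, was at 3509, 3473 and 3558 against 3401, 3121 and 3268 normalised reads. Every SLC2A3 library was below every empty vector library, with a log2 change of -0.11 that did not pass (adjusted p = 0.399, unadjusted 0.0419).

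PFKFB3 was the leading isoform in both groups, and its share of PFKFB reads per kb was 65.3% ± 0.814 with empty vector and 58.9% ± 0.946 with SLC2A3. PFKFB4 held 33.9% ± 0.970 and 40.3% ± 1.05, the widest shift of the 28 shares in percentage points after that of PFKFB3 (exact permutation p = 0.1 for each). The family total was 1188 ± 0.672 against 1226 ± 66.8 normalised reads per kb, with overlapping groups. PFKFB2, the heart isoform, was low, at 41.0 to 70.3 and 65.9 to 77.7 normalised reads, and its interval of -0.23 to 0.79 was the widest of any member. FBP1, the gluconeogenic enzyme that opposes phosphofructokinase-1, was at 567 ± 15.2 against 604 ± 24.6 with overlapping groups.

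**Figure D2:**
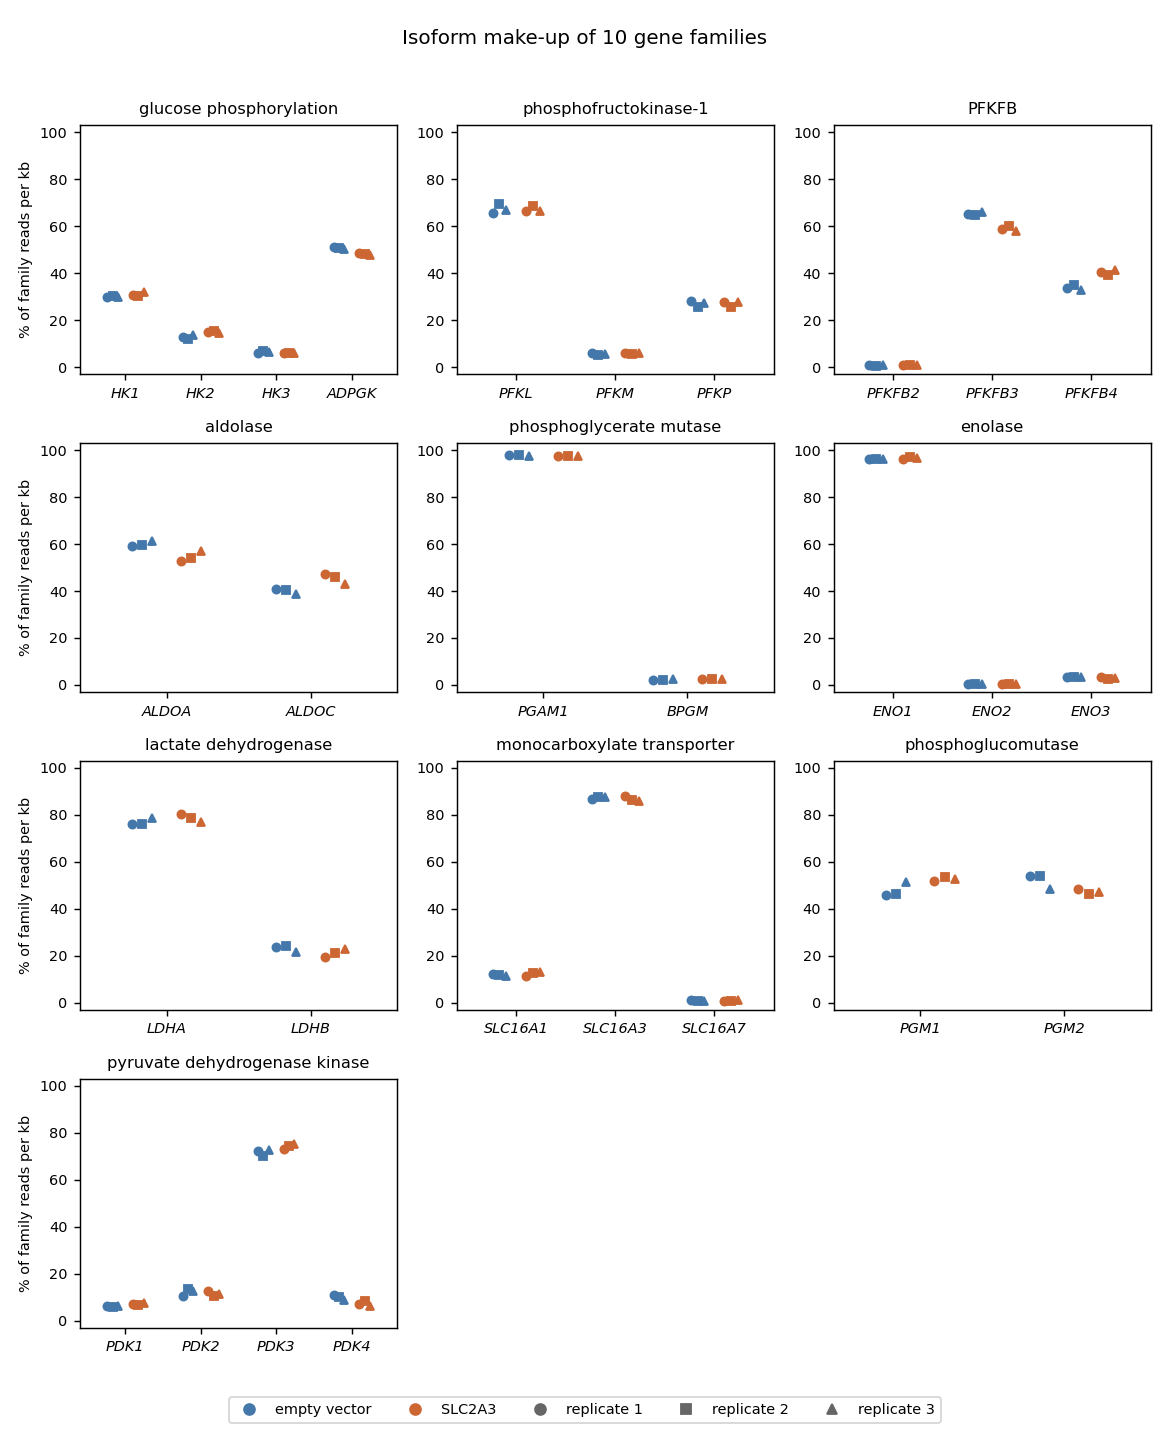
Each panel is a family with at least 2 tested members, and the y axis gives each isoform's percent of the family's normalised reads per kb in each of the 6 libraries (blue, empty vector; orange, SLC2A3; marker shape, replicate). The PFKFB4 points average 33.9% with empty vector and 40.3% with SLC2A3 and do not overlap, while the phosphofructokinase-1 isoforms overlap.

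Aldolase totalled 800 ± 90.7 against 862 ± 62.9 normalised reads per kb, below the steps on either side of it (phosphofructokinase-1 at 8346 and 8469, TPI1 at 18166 and 19297). ALDOA, the ubiquitous isoform, was at 809, 698 and 902 against 824, 743 and 790 normalised reads, with overlapping groups and a log2 change of -0.02. In GENCODE 29 ALDOA is overlapped on the same strand by ENSG00000285043, which averaged 45.7 normalised reads. The sources used here do not say how the authors treated reads of overlapping genes, so the ALDOA level and its share are uncertain, and the part of the overlap in it was not tested. ALDOC, the brain-type isoform, was at 662, 564 and 677 against 877, 755 and 702 normalised reads. The groups did not overlap, but the log2 change of 0.29 missed the threshold (SE 0.090, adjusted p = 0.118). ALDOC is overlapped on the same strand by ENSG00000258472, at a mean of 173 normalised reads. ALDOC passed under 1 alternative, a filter of at least 50 in 3 libraries (adjusted p = 0.0459). Its share of aldolase went from 40.1% ± 1.13 to 45.4% ± 2.33.

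The triose stage held some of the most abundant transcripts of the set, and none of its members passed the test. GAPDH, which makes the NADH of glycolysis, was at 50533, 51696 and 49407 against 51340, 51481 and 49367 normalised reads. The GAPDH groups overlapped almost fully, with a log2 change of 0.01 (interval -0.06 to 0.07). TPI1, which interconverts the trioses, was at 31650, 33534 and 30894 against 34540, 34230 and 33291. Empty vector replicate 2 fell inside the SLC2A3 range, and the log2 change of 0.09 did not pass (adjusted p = 0.297), although limma-voom called TPI1 (adjusted p = 0.0228).

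PGK1, the first ATP-yielding enzyme, was at 20458, 19693 and 19151 against 19770, 21312 and 20724 normalised reads, with overlapping groups and a log2 change of 0.06. PGK1 overlaps ATP7A on the same strand, at a mean of 130 normalised reads. PGAM1, the mutase of the next step, was at 19712, 19534 and 18815 against 20232, 19938 and 19941. The PGAM1 groups did not overlap, yet the difference was 0.05 on the log2 scale (adjusted p = 0.666). BPGM, which makes the haemoglobin effector 2,3-bisphosphoglycerate, was at 504 ± 11.7 against 541 ± 11.6, a log2 change of 0.10 that also did not pass.

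Enolase, with GAPDH and PKM, was among the 3 most abundant steps per kb. ENO1, the ubiquitous isoform, was at 59882, 61682 and 59711 against 63137, 66758 and 64802 normalised reads. The groups did not overlap, and the log2 change was 0.10 (SE 0.033, adjusted p = 0.129). ENO1 was called by DESeq2 with default filtering (adjusted p = 0.0343) and by limma-voom (0.000193). ENO2, the neuronal isoform, was at 226, 173 and 229 against 315, 254 and 262. Its groups were also separate, and its log2 change of 0.41 was the largest positive difference in the set, but did not pass (adjusted p = 0.154). ENO2 overlaps LRRC23 on the same strand, at a mean of 259 normalised reads. ENO3, the muscle isoform, was at 1372 ± 28.8 against 1273 ± 83.5 with a log2 change of -0.11, and overlaps the abundant PFN1 on the opposite strand.

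PKM, which makes pyruvate, was at 62346, 65614 and 63072 against 65090, 62559 and 63016 normalised reads. The groups overlapped, with a log2 change of 0.00 (interval -0.07 to 0.06). Gene counts do not separate the PKM1 and PKM2 splice forms. ENO1 at 25768 and 27676 normalised reads per kb (empty vector and SLC2A3 means), GAPDH at 26958 and 27056 and PKM at 23437 and 23392 were the highest single genes on that scale.

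**Figure D3:**
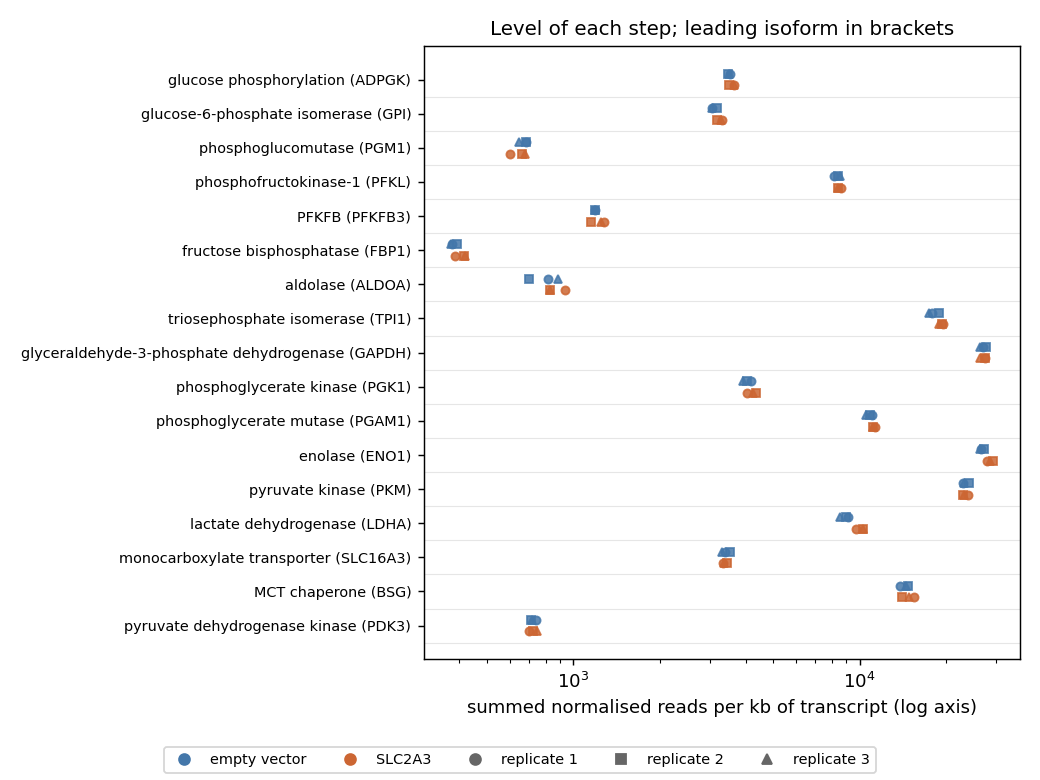
The x axis (log scale) gives the summed normalised reads per kb of transcript of each step, in pathway order from the top, for each library (blue, empty vector; orange, SLC2A3; marker shape, replicate), with the leading isoform in brackets. Of the 17 steps, the groups are separate for GPI, phosphoglycerate mutase, enolase and lactate dehydrogenase, and overlap for the rest. Among single genes, 16.3% of all tested were separate, and no such count was made for sums over other families. Aldolase stands far below phosphofructokinase-1 and TPI1, but the ALDOA part of its level is uncertain because of an overlapping gene.

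LDHA gave the lowest adjusted p of the set. LDHA (ENSG00000134333.14, chromosome 11, 18394388 to 18408425) was at 16770, 16450 and 16254 normalised reads with empty vector and 18854, 19588 and 19162 with SLC2A3. All 3 SLC2A3 libraries were above all 3 controls, and the SDs were 260 and 369. The log2 change was 0.22 (SE 0.036, interval 0.14 to 0.29, limma adjusted p = 0.000861). LDHA was called under all 22 alternatives, at log2 changes of 0.17 to 0.23 and adjusted p of 4.4e-08 to 0.0196. LDHA is overlapped on the same strand by ENSG00000256006, at a mean of 37.3 normalised reads. LDHB, the isoform of tissues that consume lactate, was at 3306, 3313 and 2827 against 2887, 3368 and 3650 normalised reads. LDHB groups overlapped widely, with a log2 change of 0.07 (interval -0.07 to 0.21).

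The difference between the isoforms was read from their shares. The LDHA share of the pair was 76.3%, 76.0% and 78.5% with empty vector and 80.6%, 78.7% and 77.0% with SLC2A3 on reads per kb. These overlap (exact permutation p = 0.2). The summed step was 8873 ± 274 against 10094 ± 358 normalised reads per kb, without overlap (exact permutation p = 0.1).

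No lactate transporter passed the test. SLC16A3 (MCT4, a high-capacity lactate exporter) was the leading transporter, at 14227, 14907 and 13966 against 14129, 14372 and 13944 normalised reads. Its groups overlapped, and the log2 change was -0.02 (interval -0.10 to 0.06). SLC16A1 (MCT1) was at 1741 ± 104 against 1831 ± 173 and SLC16A7 (MCT2) at 373 ± 14.9 against 356 ± 49.4, both overlapping. SLC16A1 and SLC16A3 overlap expressed genes on the opposite strand, SLC16A1-AS1 and CSNK1D. BSG, the chaperone that brings MCT1 and MCT4 to the membrane, was at 27435, 29273 and 28619 against 30586, 27769 and 29356 normalised reads, a log2 change of 0.04 with overlapping groups.

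Among the kinases that switch off pyruvate dehydrogenase, PDK1 and PDK4 lay on opposite sides without passing the test. PDK1 was at 651, 605 and 631 against 721, 678 and 774 normalised reads. The groups did not overlap, with a log2 change of 0.20 (SE 0.081, adjusted p = 0.281). PDK4, the isoform induced by fasting and fatty acids, was at 292, 259 and 222 against 178, 218 and 163. Every SLC2A3 library was below the lowest empty vector library, and the log2 change of -0.47 was the largest negative one in the set (SE 0.140, adjusted p = 0.101). PDK4 passed under 3 alternatives, with no filter (0.0465), with at least 50 in 3 libraries (0.0454) and with the length and GC trend removed (0.0469).

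PDK3 led the family at 1031, 961 and 1001 against 983, 1037 and 1080 normalised reads, with overlapping groups. PDK2 was at 303 ± 33.7 against 288 ± 22.6, also overlapping. On reads per kb PDK4 went from 9.95% ± 1.19 to 7.20% ± 1.15 of the family, PDK1 from 6.12% ± 0.120 to 7.04% ± 0.392 and PDK3 from 71.7% ± 1.34 to 74.2% ± 1.17, and none of the 3 overlapped (exact permutation p = 0.1 each). The PDK1 model is 14193 bases long, so its share depends on that length. On plain reads PDK1 was 28.7% ± 0.638 against 32.4% ± 1.38, and PDK3 overlapped at 45.6% ± 0.972 against 46.3% ± 1.22. The family total was level, at 724 ± 15.8 against 725 ± 22.6 normalised reads per kb.

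**Figure D4:**
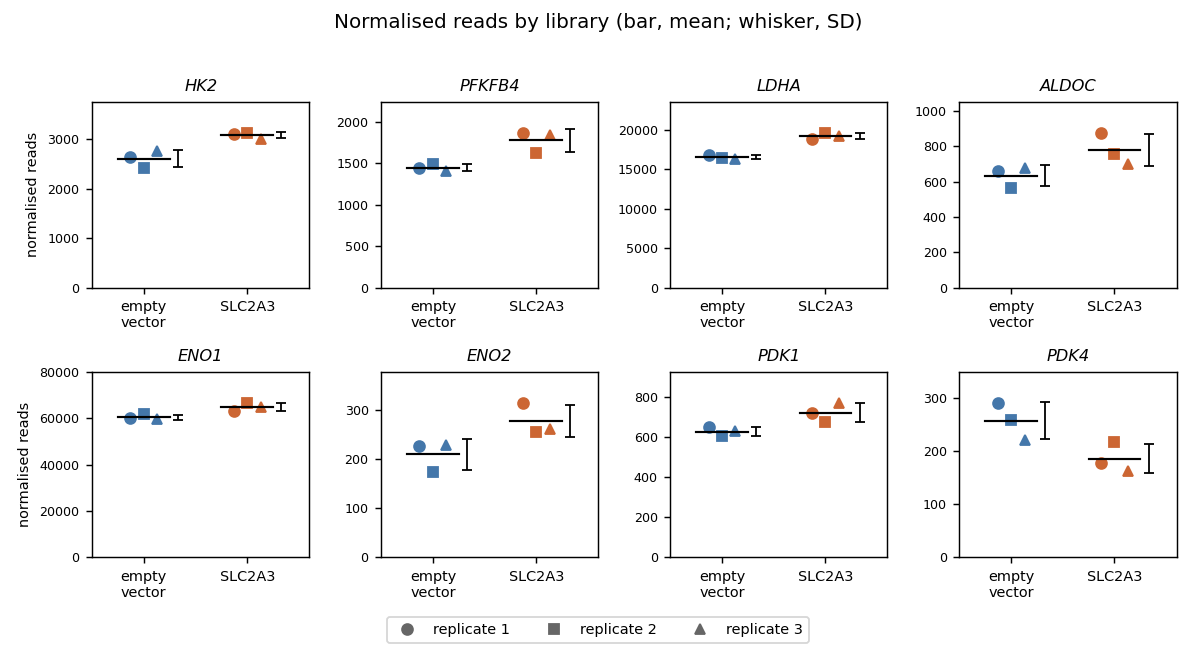
Normalised reads in each of the 6 libraries (y axis from 0; blue, empty vector; orange, SLC2A3; marker shape, replicate; bar, mean; whisker, SD) for the 3 members that passed the test and 5 that did not. All 8 shown are members whose groups do not overlap, so every panel has separate groups. Of the 35 tested members, 11 were separate upward and 2 downward, and the remaining members, not shown, overlapped. Over all tested genes 16.3% were separate in either direction. LDHA has the smallest spread beside its gap of the 8.

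Around the pathway, 82 further genes in 6 lists were read from the same fit, of which 73 were tested, 0 were called higher and 3 lower by limma. At an unadjusted limma p under 0.05, 10 of the 73 were higher and 7 lower. Over all tested genes 11.8% were under it in either direction, and 19.9% of those with a mean of at least 100. edgeR also called 0 higher, and DESeq2 with default filtering called EMB, an MCT chaperone, higher (936 ± 29.9 normalised reads with empty vector against 1089 ± 51.8, adjusted p = 0.0489). The 3 that fell were all among the 18 tested glycolysis regulators. TXNIP, an inhibitor of glucose uptake, fell from 3974 ± 73.6 to 2214 ± 41.5 normalised reads (log2 change -0.84, adjusted p = 7.38e-12). MLXIPL, the glucose-sensing transcription factor ChREBP, was at 7410, 7444 and 7272 against 6560, 5961 and 6355 normalised reads, with separate groups. MLXIPL fell by 0.23 on the log2 scale (adjusted p = 0.0041) and was called under every alternative run. EPAS1, which encodes HIF-2 alpha, was at 1067, 1018 and 1061 against 807, 884 and 908 normalised reads. EPAS1 fell by 0.28 on the log2 scale (adjusted p = 0.0453), and lost that call without any 1 of the 6 libraries, with a pseudocount of 0.1, with limma-voom and with the length and GC trend removed. HIF1A, MYC and SLC2A1 were not called (log2 changes 0.08, 0.02 and 0.15).

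No gene of the other lists passed in limma with all 6 libraries, and PDP1, a pyruvate dehydrogenase phosphatase, was called lower without both replicate 2 libraries (log2 change -0.32, adjusted p = 0.0195). These were 10 tested tissue-restricted isoforms such as PKLR (list median 0.16), 5 other carriers (0.22), 8 genes of the pyruvate dehydrogenase complex and its phosphatases (-0.03), 21 of glycogen and hexose phosphates (-0.03) and 11 of gluconeogenesis and the glycerol branch (0.04). Most of the restricted isoforms' summed level, 509 to 588 normalised reads in controls and 518 to 560 with SLC2A3, came from LDHC, the testis isoform, at 427 ± 21.7 against 402 ± 30.0.

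Most members were well counted. Of the 35 tested, 34 had a mean of at least 100 normalised reads, and their median coefficient of variation was 3.44% in controls and 4.43% with SLC2A3. The median half-width of their 95% intervals was 0.13 on the log2 scale. Reads assigned to pseudogenes, found by a symbol made of the parent's name and P, were few beside those of the parent gene. Copies named otherwise were not counted, and the pseudogene type was not checked. They came to 0.412% of GAPDH over 65 pseudogene IDs, 0.377% of LDHA over 6 and 0.258% of TPI1 over 4. Reads of a parent gene that were dropped because they also match a copy would not appear in these values.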

How the data were processed

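Each file holds 1 value for each of 60660 Ensembl gene IDs. Deposited values are a signal that equals read counts over a library's size factor, as found from the values: 100% were whole multiples of 1 step per library within 0.001 reads. In empty vector replicates 2 and 3 the size factors, 0.9999 and 0.9988, are so close to 1 that recovery of whole reads is less certain there, and depth and edgeR values for them carry that doubt. BWA, TopHat2 and hg38 are named, without roles or versions, in the submitters' processing notes. The gene annotation, the counter, its use of strand and its handling of overlapping genes are not given in the sources used here. Libraries were made with a directional kit, per the labels' protocols.

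log2(value + 1) was fitted with limma 3.58.1 (limma-trend) in R 4.3.3 for the 28015 genes that reached 1 in 3 or more libraries, with group as the only term and Benjamini-Hochberg adjustment over all of them. The threshold was 0.05. Fold changes are ratios of group means, and log2 changes are differences between group means of log2(value + 1), so they can differ for low genes. For PFKFB2, a low member, the log2 change was 0.28, against 0.25 in edgeR. It was 0.285 with a pseudocount of 0.1 and 0.26 with a pseudocount of 5. Values are means ± SD with n = 3 per group. Isoform shares used exact two-sided permutation tests over libraries. Coordinates, overlaps and lengths are from GENCODE 29 and promoters from RefSeq, which held 34 of the 36 members.

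edgeR 4.0.16 with TMM on recovered reads called 285 genes higher and 328 lower of 18630. DESeq2 1.42.0, limma-voom, other filters, pseudocounts and scalings, a replicate block, a length and GC trend removal and left-out libraries were alternatives. In replicate pairs, chi-square per gene was 3.5 to 6.78, so no library was a copy. Tested on simulated data for this comparison (27326 genes), limma called 76 of 100 genes altered 1.5-fold, 99 of 100 altered 2-fold, and 5 unaltered genes. The altered genes were drawn only from those with mean reads of at least 50, so recovery among lower genes was not measured. Recovery of smaller changes was not simulated.

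The members and gene lists were chosen with earlier results of these data known. All members were described, with library values for called members and leading isoforms, and from the other lists genes past the threshold were to be named. PKLR, LDHC, PDP1, FLT3, EMB, HIF1A, MYC, SLC2A1, the markers and RN7SL1 were named in addition, after their values were seen.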

Additional observations from a re-analysis of the deposited data

How the results depend on the processing

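The SLC2A3 log2 change was past the threshold under all 22 alternatives (1.68 to 1.74). LDHA was called under all 22, PFKFB4 under 19 and HK2 under 17. No called member changed sign. Of the members that did not pass, 28 were called under no alternative and ALDOC, TPI1, ENO1 and PDK4 under at least 1. limma-voom called 5 members higher. 1 member, PDK4, was called lower with no filter, with at least 50 in 3 libraries and with the length and GC trend removed. That last alternative gave a member median of 0.029 (0.060 as reported) and a median over all genes of -0.018 (0.0014 as reported), and the cause was not tested. With any 1 library dropped there were 1 to 3 members higher and 0 lower, with a median of 0.036 (without SLC2A3 replicate 3) to 0.072. Without both replicate 2 libraries HK2 lost its call (adjusted p = 0.157).

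Over all genes, the 194 higher and 224 lower became 140 and 144 with a pseudocount of 0.1, 322 and 417 with at least 50 in 3 libraries (fewer genes tested), 297 and 312 with edgeR RLE, 303 and 265 with edgeR upper quartile and 345 and 466 with DESeq2 default filtering, which also called 1 other pathway gene higher. Leaving out 1 library gave 100 to 222 higher and 88 to 244 lower, and 14 to 17 isoform shares without overlap, against 12. Leaving out a library cannot create overlap, so that share count could only stay at 12 or rise. On plain reads 12 also did not overlap, but they were not the same 12. HK3 was separate and PDK3 overlapped on plain reads, and the reverse held on reads per kb.

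11 uncalled members changed sign under at least 1 alternative. PKM was 0.0049 with edgeR upper quartile, 0.0037 with limma-voom and 0.0033 with the length and GC trend removed, which also gave GAPDH -0.011, SLC16A3 0.0093 and PDK3 -0.0087. Without both replicate 2 libraries PFKFB2 was -0.032, PKM 0.030 and PDK2 0.066. With 1 library left out the values were PFKL -0.020 to 0.043, PFKP -0.017 to 0.067, PKM -0.020 to 0.019, SLC16A3 -0.042 to 0.0053, SLC16A7 -0.17 to 0.034, PDK2 -0.16 to 0.0033, ALDOA -0.12 to 0.063, GAPDH -0.011 to 0.025 and LDHB -0.010 to 0.16.

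The labels do not say whether shared replicate numbers pair the libraries. Over 11730 genes, same-numbered libraries correlated at -0.11, 0.01 and 0.00 in their deviations from group means, and 0 correlated best with their own number. A replicate block gave 167 genes higher and 196 lower and the same 3 members (LDHA adjusted p = 0.00228, PFKFB4 0.0175, HK2 0.0259), and did not call EPAS1.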
